A study of Mus musculus with 16 samples.

Results

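Lipolysis and the protein coat of the lipid droplet were described through 10 genes, Pnpla2, Lipe, Mgll, Abhd5, G0s2, Plin1, Plin2, Plin4, Plin5 and Cidec, which were taken by symbol from the 23179 genes listed for mouse mammary adipose tissue. All 10 were listed, and all 10 were among the 21218 genes with enough reads to be tested. The rule named them by function and used no measured value, but the members were chosen with earlier results of these data known.

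White adipocytes store triglyceride in a large lipid droplet and release it as fatty acids and glycerol when energy is needed. The 3 enzymes act in turn: adipose triglyceride lipase (Pnpla2) makes diglyceride, hormone-sensitive lipase (Lipe) makes monoglyceride, and monoglyceride lipase (Mgll) frees the last fatty acid. Adipose triglyceride lipase is activated by the cofactor CGI-58 (Abhd5) and inhibited by the small protein G0S2. The perilipins cover the droplet and control access of the lipases, and perilipin 1 (Plin1) holds Abhd5 until catecholamines set it free. Cidec lets droplets exchange lipid and grow large. Much of the control of these proteins is by phosphorylation, location and protein stability, which transcript levels do not show.

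RNA-Seq was performed on the ninth mammary fat pad, opposite to the fourth pad that carried the tumor, in 16 mice (n = 4 per group). All mice were wild-type C57BL/6N females (C57BL/6NCrl in the methods), 8 weeks old on arrival, and all were injected with E0771 mouse mammary cancer cells 22 weeks after diets were assigned and kept for a further 4 weeks. CON-LFD mice stayed on the control diet with a sham operation. Mice with diet-induced obesity (DIO), raised on a 60% high-fat diet, remained on that diet after a sham operation (DIO-HFD), changed to the low-fat diet after a sham operation (DIO-LFD), or had vertical sleeve gastrectomy, the removal of most of the outer stomach, and then the low-fat diet (DIO-VSG). Tumor-free mice and mice with gastrectomy on the high-fat diet were not analysed here, so every value below comes from the tumor-bearing state. DIO-VSG differed from DIO-HFD in both operation and diet, and from DIO-LFD in operation. Each library carried its own animal number.

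Library totals lay between 46907377 and 57610899 reads, and counting error was small beside the differences between mice. The members together took between 0.617% of reads (DIO-HFD replicate 1) and 1.87% (DIO-LFD replicate 1). The adipose label was borne out by adiponectin (Adipoq), which ranged from 30428 to 123530 normalized counts, that is, reads scaled to equal library size. Markers of other cells were also present. Scores, each the mean log2 difference of 10 markers from their own mean over the 16 libraries, ran from -5.92 to 2.37 for B cells, and the 4 DIO-VSG libraries lay between 1.87 and 2.07. The adipocyte score, from 14 markers that are not members, ran from -1.34 to 0.62. In whole tissue, fewer adipocytes and less RNA per adipocyte cannot be told apart.

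On the values of the 10 members, the libraries that stood furthest apart were DIO-HFD replicate 1 and DIO-LFD replicate 1. They are called outlying below in that sense only, not over all genes. DIO-HFD replicate 1 was the lowest of the 16 libraries for 9 of the 10 members, the exception being Plin4, which was lowest in DIO-VSG replicate 3. It also had the lowest adipocyte score, -1.34, and the highest B cell score, 2.37. DIO-LFD replicate 1 was the highest of the 16 libraries for 7 members and exceeded the median of the other 3 DIO-LFD libraries 4.95-fold for Plin5, 3.27-fold for Cidec, 3.01-fold for Abhd5 and 2.57-fold for Pnpla2. Its Plin1 was 0.91-fold that median, and its adipocyte score, 0.4, lay in the range of the CON-LFD libraries. The fatty acid synthase gene Fasn, looked at after the values were seen, had 21753 normalized counts in this library, 310259 to 694004 in the other 3 DIO-LFD libraries and 10120 to 35461 in DIO-HFD. Acaca, which encodes acetyl-CoA carboxylase, had 33002 in DIO-LFD replicate 1, below the other 3 DIO-LFD libraries (63859 to 128797) but above DIO-HFD (4712 to 11640). Pdk4, a kinase gene induced in fasting, had 41437 against 6842 to 13012 in the other 3, and these genes were chosen after their values were seen. What set these libraries apart was not tested, and each comparison of the 10 genes as a set is given below with and without both.

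**Figure D1:**
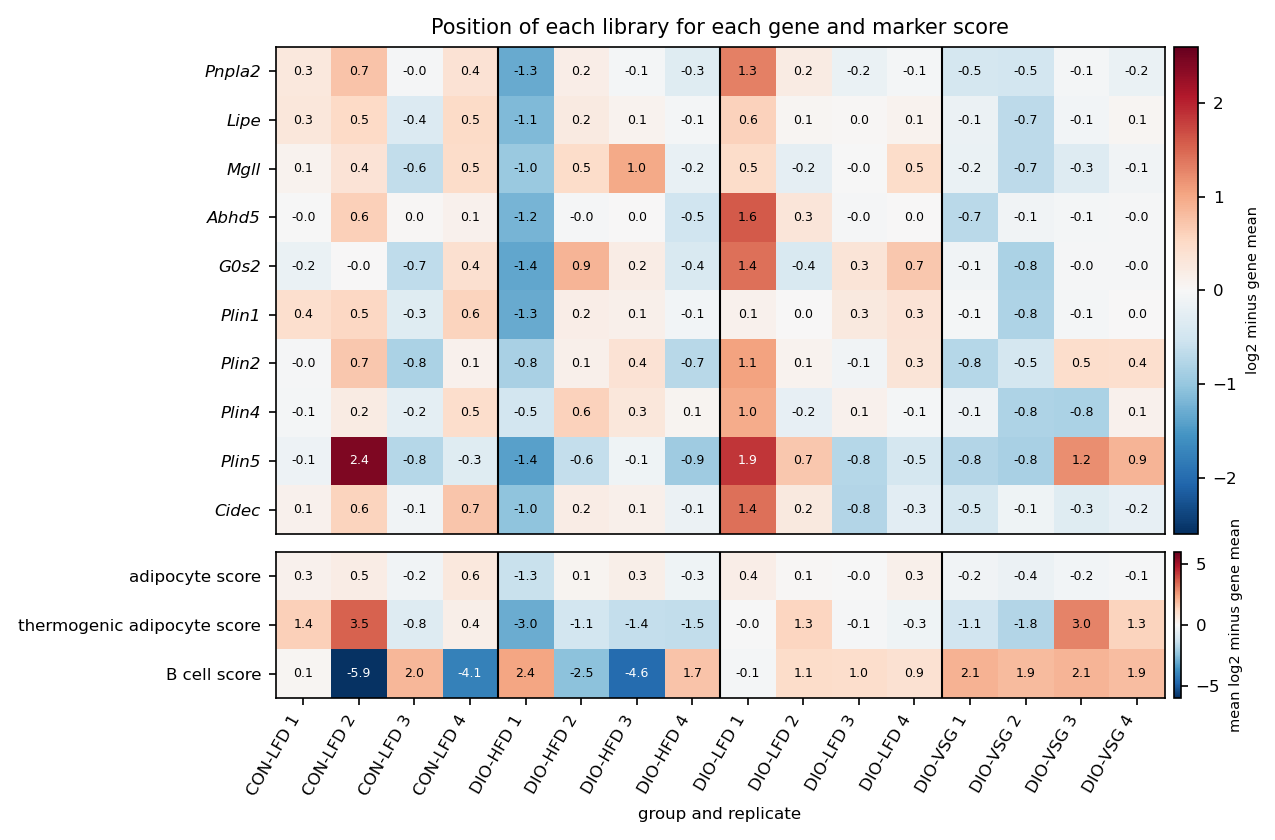
Position of each of the 16 libraries (columns, by group and replicate) for the 10 genes (upper rows, log2 value minus the gene's mean over the libraries) and for 3 marker scores (lower rows, own colour scale, mean log2 difference over the markers). DIO-HFD replicate 1 is below the mean for all 10 genes and DIO-LFD replicate 1 is above it for all 10.

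Per kilobase of the longest transcript, the scale on which levels of different genes are compared here, Cidec had the highest mean level over the 16 libraries (45653 normalized counts per kilobase) and Plin5 the lowest (511). Between them came Plin4 (32163), Pnpla2 (31053), Plin1 (25581), Lipe (17041), Mgll (12495), Plin2 (7596), G0s2 (5737) and Abhd5 (1673). Plin4 exceeded Pnpla2 in 9 of 16 libraries and Pnpla2 exceeded Plin1 in 12, so the order of these neighbours was within their spread. Every other step of the order held in at least 14 libraries, and those from Plin1 to Lipe, from G0s2 to Abhd5 and from Abhd5 to Plin5 held in 16. The transcript of the activator Abhd5 was thus below that of the inhibitor G0s2 in every library.

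In limma, none of the members passed an adjusted P value of 0.05 in any of the 6 comparisons: 0 of 10 each time. Among all 21218 genes the share that passed was 0.0377% in DIO-HFD versus CON-LFD, 0.00471% in DIO-LFD versus CON-LFD and 0% in the other 4 comparisons, and limma-voom on recovered reads also passed 0 members. At an unadjusted P value of 0.05, 1 member passed in DIO-LFD versus DIO-HFD (Abhd5), against 8.53% of all genes. In the other comparisons 0 of 10 passed, against 12.9% of all genes in DIO-HFD versus CON-LFD, 13.2% in DIO-VSG versus DIO-HFD, 9.71% in DIO-VSG versus DIO-LFD, 6.26% in DIO-LFD versus CON-LFD and 17.8% in DIO-VSG versus CON-LFD. Replicate spread was wide for these genes. The SD within groups on the log2 scale was 0.43 for Lipe, the smallest, 0.51 for Pnpla2 and 1.11 for Plin5, the largest, where the median was 0.36 over all tested genes and 0.21 over the 8516 genes of high level.

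**Figure D2:**
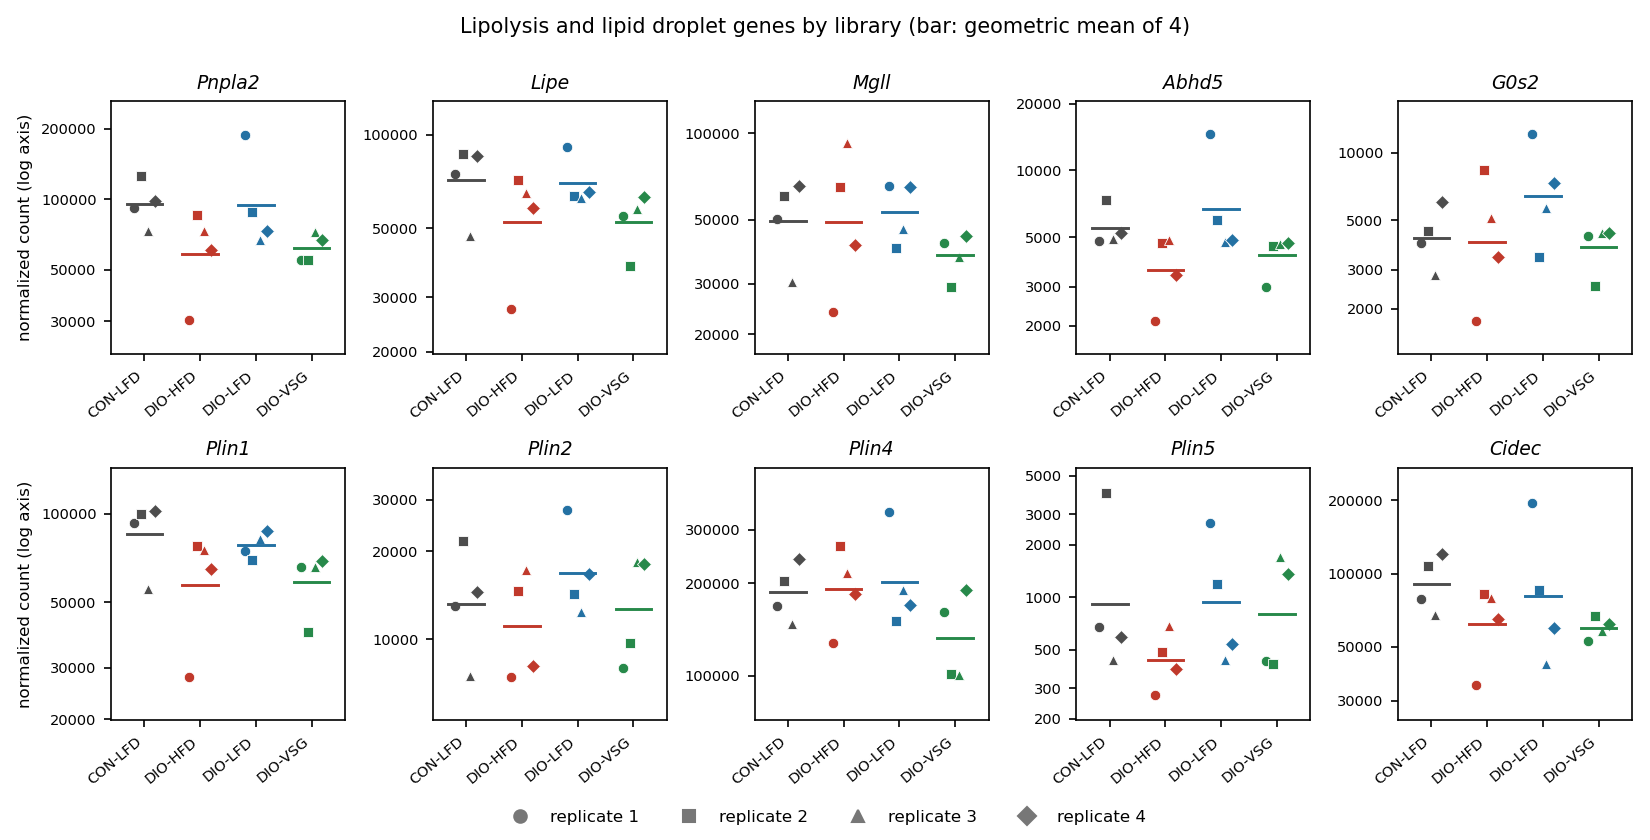
Normalized counts (log axis) of the 10 genes in each library, by group; symbols mark replicates 1 to 4 and bars are geometric means of the 4. In DIO-HFD the lowest point is replicate 1 for every gene, and in DIO-LFD the highest is replicate 1 for 9 genes, all but Plin1.

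Pnpla2 (chr7:141455198-141460743, plus strand, GRCm38; 9 exons in the longest transcript), the first and rate-limiting lipase, had 91555, 126148, 73406 and 98344 normalized counts in CON-LFD replicates 1 to 4. In DIO-HFD the values were 30500, 85572, 73174 and 60556, in DIO-LFD 187691, 87983, 67237 and 73007, and in DIO-VSG 54969, 54696, 72276 and 67101. Every DIO-VSG library lay below every CON-LFD library, while DIO-HFD overlapped CON-LFD by 1 high value and DIO-LFD overlapped every other group. Relative to CON-LFD, the log2 change was -0.71 (SE 0.34, limma adjusted P = 0.398) in DIO-HFD and -0.63 (SE 0.34, limma adjusted P = 0.322) in DIO-VSG. The exact two-sided permutation P, unadjusted, was 0.0286 for DIO-VSG and 0.0571 for DIO-HFD. Here and below, 0.0286 is the smallest that 4 against 4 can give and follows whenever groups do not overlap, so it restates the separation. Relative to DIO-HFD, Pnpla2 had a log2 change of 0.7 (SE 0.34, limma adjusted P = 0.608) in DIO-LFD, which was 0.37 without DIO-LFD replicate 1, 0.39 without DIO-HFD replicate 1 and 0.06 without both, and 0.08 (SE 0.34, limma adjusted P = 0.911) in DIO-VSG. With libraries weighted by their agreement with the fit, the change in DIO-HFD was -0.66 with a limma adjusted P of 0.0485, in a setting that passed 4196 of all genes. There DIO-HFD replicate 4 had a weight of 10.9 and the other DIO-HFD libraries 0.222 to 0.484, so the group rested mostly on that library. Over the alternatives run, the adjusted P of DIO-HFD relative to CON-LFD ranged from 0.0485 to 0.715.

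Lipe (chr7:25379527-25398710, minus strand), the lipase that catecholamines activate through protein kinase A, had 74642, 86828, 47230 and 85423 normalized counts in CON-LFD, against 27574, 71562, 64969 and 58197 in DIO-HFD. DIO-LFD had 91674, 63409, 62671 and 65275, and DIO-VSG 54625, 37700, 57640 and 62951. All groups overlapped in part, although 3 of the 4 DIO-VSG values lay below all of DIO-LFD. The log2 change was -0.45 (SE 0.29) in DIO-HFD and -0.45 (SE 0.29) in DIO-VSG relative to CON-LFD, and 0.0 (SE 0.29) in DIO-VSG relative to DIO-HFD, with a 95% interval of -0.62 to 0.62. The change in DIO-HFD relative to CON-LFD was -0.14 without DIO-HFD replicate 1. An antisense gene, 4732471J01Rik, overlaps Lipe. Its mean of 524 counts was small beside Lipe.

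Mgll (chr6:88724412-88828360, plus strand), which also breaks down the endocannabinoid 2-arachidonoylglycerol, had 50257, 60313, 30408 and 65556 normalized counts in CON-LFD, against 23909, 65224, 92358 and 40910 in DIO-HFD. DIO-LFD had 65361, 39954, 46429 and 65268, and DIO-VSG 41463, 29132, 37263 and 44064. The highest and the lowest value of the 16 were both in DIO-HFD, so this group spanned all others. Its log2 change in DIO-HFD relative to CON-LFD was -0.01 (95% interval -0.77 to 0.76), and in DIO-VSG it was -0.39 relative to DIO-HFD (SE 0.36, limma adjusted P = 0.575) and -0.5 relative to DIO-LFD (SE 0.36, limma adjusted P = 0.572). Without DIO-HFD replicate 1 the change in DIO-HFD relative to CON-LFD was 0.34. With the adipocyte score as a covariate, Mgll in DIO-VSG was lower than in DIO-HFD (log2 change -0.48, limma adjusted P = 0.0351), in a setting that passed 2112 genes in all.

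Abhd5 (chr9:122351608-122381524, plus strand), the activator of adipose triglyceride lipase, had 4803, 7380, 4930 and 5227 normalized counts in CON-LFD, against 2090, 4729, 4859 and 3377 in DIO-HFD. In DIO-LFD it had 14631, 6007, 4748 and 4865, and in DIO-VSG 2972, 4549, 4667 and 4696. Every DIO-VSG library lay below every library of CON-LFD and of DIO-LFD, although the gap was small (4696 against 4748 and 4803). The log2 change in DIO-LFD relative to DIO-HFD was 0.91 (SE 0.34, 1.88-fold, limma adjusted P = 0.491). The exact permutation P was 0.0571 and the unadjusted limma P 0.0188. The unadjusted limma P was 0.0723 without DIO-HFD replicate 1 (log2 change 0.65), 0.069 without DIO-LFD replicate 1 (0.54) and 0.22 without both (0.28). With library weights, under which DIO-HFD rested mostly on replicate 4, the log2 change was 0.74 and the limma adjusted P 0.046. Over the alternatives run, that adjusted P ranged from 0.046 to 0.777. In DIO-VSG, Abhd5 had a log2 change of -0.69 relative to DIO-LFD (SE 0.34, limma adjusted P = 0.51), which was -0.32 without DIO-LFD replicate 1. Relative to CON-LFD the change was -0.41 (SE 0.34, limma adjusted P = 0.506). Both exact permutation P values were 0.0286, the value that 4 against 4 gives for any groups without overlap, so they only restate the gap.

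G0s2 (chr1:193272161-193273217, minus strand, 2 exons), the inhibitor, had 3953, 4482, 2846 and 5997 normalized counts in CON-LFD, against 1759, 8341, 5119 and 3399 in DIO-HFD. DIO-LFD had 12165, 3404, 5639 and 7311, and DIO-VSG 4220, 2525, 4392 and 4396. DIO-HFD and DIO-LFD were widely spread, and 3 of 4 DIO-VSG values lay within 4220 to 4396. The largest log2 change was that of DIO-VSG relative to DIO-LFD, -0.76 (SE 0.44, limma adjusted P = 0.529), and that of DIO-LFD relative to CON-LFD was 0.62 (SE 0.44, limma adjusted P = 0.873). The former was -0.46 without DIO-LFD replicate 1 and -1.07 without DIO-LFD replicate 2, and the latter was 0.32 and 0.93, likewise. G0s2 lies within the span of Lamb3, a laminin gene on the other strand with a mean of 1437 counts.

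The balance of the lipase with its partners was read within each library, where scaling cancels. Per kilobase, G0s2 stood at 13%, 10.7%, 11.7% and 18.4% of Pnpla2 in CON-LFD, and at 17.4%, 29.4%, 21.1% and 16.9% in DIO-HFD. In DIO-LFD the ratio was 19.5%, 11.7%, 25.3% and 30.2%, and in DIO-VSG 23.1%, 13.9%, 18.3% and 19.7%. CON-LFD had the lowest mean log2 ratio, -2.93 ± 0.34 (SD, n = 4), against -2.28 ± 0.37 in DIO-HFD, -2.29 ± 0.6 in DIO-LFD and -2.44 ± 0.31 in DIO-VSG, but its library 4 overlapped each of the other groups. The ratio of Abhd5 to Pnpla2 was narrower, from 4.36% to 6.92% over all libraries, with group means of the log2 ratio from -4.39 ± 0.16 (CON-LFD) to -4.09 ± 0.1 (DIO-LFD). In DIO-LFD replicate 1, where both transcripts were highest, it was 6.48%. Lipe to Pnpla2 ranged from 34.5% in DIO-LFD replicate 1 to 70.3% in DIO-VSG replicate 1, and the 4 DIO-HFD libraries lay between 59.1% and 67.9%. These ratios are descriptions and no test was run on them.

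**Figure D3:**
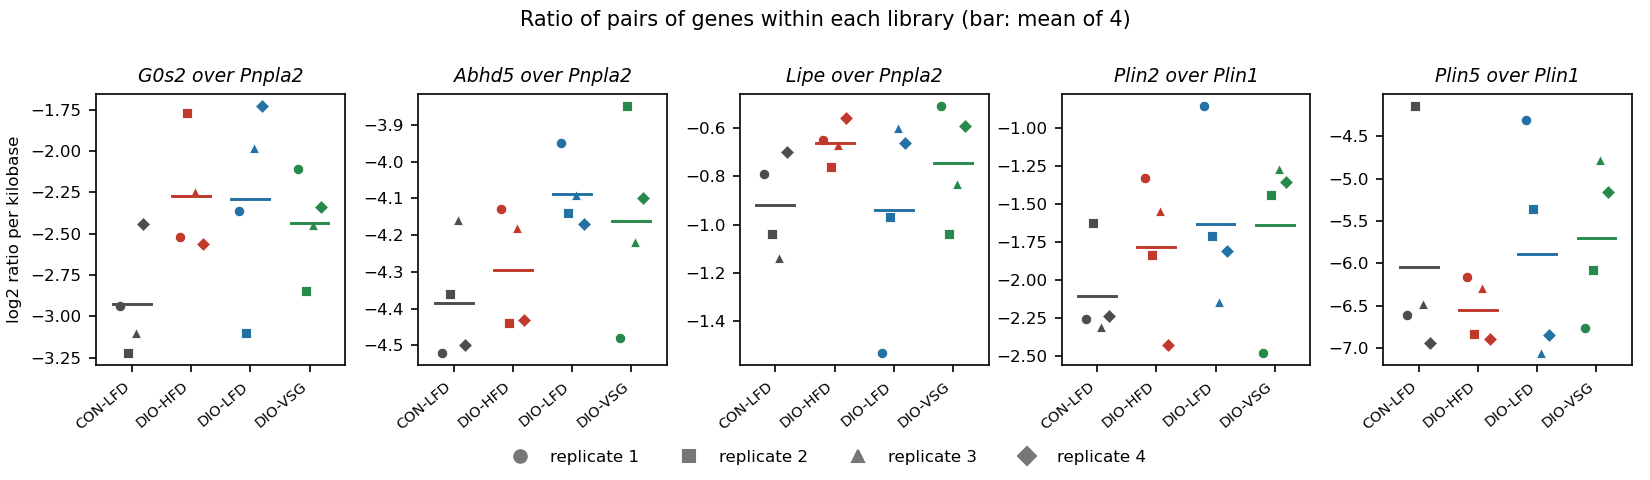
Log2 ratio per kilobase of 5 pairs of genes within each library, by group; symbols mark replicates and bars are the means of 4, and each panel has its own axis. G0s2 over Pnpla2 has its lowest mean in CON-LFD (-2.93), and the ratios to Plin1 in DIO-LFD are highest in replicate 1.

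Plin1 (chr7:79720218-79732903, minus strand), the perilipin of the adipocyte droplet, had 93088, 100017, 55337 and 102756 normalized counts in CON-LFD, against 27815, 78050, 75699 and 65094 in DIO-HFD. DIO-LFD had 74794, 69689, 82408 and 87448, and DIO-VSG 65986, 39525, 65877 and 69399. Every DIO-VSG library lay below every DIO-LFD library, by a gap of 69399 to 69689. The log2 change of DIO-VSG relative to DIO-LFD was -0.41 (SE 0.31, limma adjusted P = 0.579, exact permutation P = 0.0286), and that of DIO-HFD relative to CON-LFD was -0.58 (SE 0.31, limma adjusted P = 0.452). The latter was -0.23 without DIO-HFD replicate 1 and -0.05 with the adipocyte score as a covariate. Plin1 was the member for which DIO-LFD had the smallest spread (SD 0.15 on the log2 scale).

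Plin2 (chr4:86648386-86670060, minus strand), the perilipin found on droplets of most cell types, had 13041, 21722, 7480 and 14530 normalized counts in CON-LFD, against 7403, 14654, 17269 and 8100 in DIO-HFD. DIO-LFD had 27656, 14307, 12450 and 16740, and DIO-VSG 7946, 9731, 18342 and 18097. DIO-VSG split into a low and a high pair, and all groups overlapped. Its log2 changes were between -0.42 (DIO-VSG relative to DIO-LFD) and 0.61 (DIO-LFD relative to DIO-HFD, SE 0.39, limma adjusted P = 0.755). Per kilobase, Plin2 stood at 18% to 55.2% of Plin1, the highest share being that of DIO-LFD replicate 1.

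Plin4 (chr17:56100591-56109803, minus strand), a perilipin of white adipocytes with a long repeat region, had 169333, 203661, 147778 and 241113 normalized counts in CON-LFD, against 127493, 265031, 217207 and 184510 in DIO-HFD and 341767, 151126, 190542 and 169792 in DIO-LFD. In DIO-VSG it had 161494, 101030, 100101 and 190077, of which 2 lay below all 12 libraries of the other groups. The log2 change in DIO-VSG was -0.53 relative to DIO-HFD (SE 0.31, limma adjusted P = 0.421) and -0.61 relative to DIO-LFD (SE 0.31, limma adjusted P = 0.51). Plin4 was the single member with a log2 change above 0 in DIO-HFD relative to CON-LFD, 0.04 (95% interval -0.63 to 0.7).

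Plin5 (chr17:56111601-56117596, minus strand), the perilipin of oxidative tissues that tethers droplets to mitochondria, varied most of the members, 14.46-fold between the highest and the lowest library. It had 672, 3974, 438 and 592 normalized counts in CON-LFD, against 275, 484, 682 and 386 in DIO-HFD. DIO-LFD had 2667, 1196, 438 and 538, and DIO-VSG 430, 411, 1693 and 1366. DIO-HFD was the only group without a library above 682, and every other group held 1 or 2 high libraries beside low ones. The log2 change of 1.11 in DIO-LFD relative to DIO-HFD had a 95% interval of -0.45 to 2.66 (limma adjusted P = 0.764) and was 0.6 without DIO-LFD replicate 1 and 0.38 without both, and that of 0.89 in DIO-VSG an interval of -0.67 to 2.44 (limma adjusted P = 0.534). Plin5 was at 1196 to 3974 in 5 libraries and at 275 to 682 in the other 11, and 4 of the 5 also had raised markers of brown and beige adipocytes. CON-LFD replicate 2 had 24043 normalized counts of the uncoupling protein gene Ucp1 and DIO-VSG replicate 3 had 21836, while the other 14 had 4.63 to 4658. The thermogenic score, from 10 markers, was 3.55 and 2.99 in these libraries, 1.34 in DIO-VSG replicate 4 (Ucp1 4658) and 1.29 in DIO-LFD replicate 2 (Ucp1 2098). It was 1.44 in CON-LFD replicate 1, where Plin5 had 672. In the fifth, DIO-LFD replicate 1, it was -0.01, with 682 counts of Ucp1 and 2667 of Plin5. The part of thermogenic adipocytes in the Plin5 values was not tested.

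Cidec (chr6:113424634-113435760, minus strand), the fat-specific protein that enlarges droplets, had 78342, 107168, 67395 and 119909 normalized counts in CON-LFD, against 34987, 82069, 79257 and 65239 in DIO-HFD. DIO-LFD had 194572, 85692, 42375 and 59589, and DIO-VSG 52602, 66817, 58307 and 62045. The DIO-VSG libraries were close together (SD 0.15 on the log2 scale, against 0.94 in DIO-LFD) and lay below all CON-LFD libraries, 66817 against 67395 at the nearest. The log2 change in DIO-VSG relative to CON-LFD was -0.6 (SE 0.39, limma adjusted P = 0.391, exact permutation P = 0.0286). In DIO-LFD relative to DIO-HFD it was 0.38 (SE 0.39), and without DIO-LFD replicate 1 it was -0.05.

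DIO-HFD was set against CON-LFD for the state of obesity, in which the current diet differed as well. Of the 10 members, 9 had a log2 change below 0, against 47.3% of all genes, with a median of -0.5 where that of all genes was 0.02. The changes ran from -1.08 for Plin5, which was -0.37 without CON-LFD replicate 2, to 0.04 for Plin4. No member separated the groups (3% of all genes were lower and 1.76% higher without overlap). With DIO-HFD replicate 1 and DIO-LFD replicate 1 both left out, 7 members were below 0 and the median was -0.19. Of the 14 adipocyte markers, 13 were also below 0, with a median of -0.45. With the adipocyte score as a covariate, 5 members were below 0 and the median was 0.01.

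For weight loss by diet alone, DIO-LFD was set against DIO-HFD. All 10 members had a log2 change above 0, against 51.6% of all genes, with a median of 0.53 against 0.01 and a range from 0.08 (Plin4) to 1.11 (Plin5). No member separated the groups (3.01% of all genes were higher and 1.5% lower without overlap). Without both outlying libraries, 5 members were above 0 and 5 below, and the median was 0.02. Of the 14 adipocyte markers, 12 were above 0, with a median of 0.38. With a B cell score term, 7 members passed an unadjusted P value of 0.05 in limma, against 15.8% of all genes in that setting, and 0 an adjusted one, and with the adipocyte score the median was 0.05. These 2 libraries stood out by the members' own values, so leaving both out had to narrow this difference and decides nothing about it. With DIO-HFD replicate 1 alone left out, 8 members were above 0 (median 0.20), and with DIO-LFD replicate 1 alone left out, 8 (median 0.37).

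For weight loss by surgery together with diet, DIO-VSG was set against DIO-HFD. Of the members, 6 of 10 were above 0, against 52.5% of all genes, and 4 below, against 47.5%, with a median of 0.02 that equalled that of all genes. The extremes were Plin4 (-0.53) and Plin5 (0.89). No member separated the groups (4.22% of all genes were lower and 2.37% higher without overlap). Without both outlying libraries 9 members were below 0, with a median of -0.31, and Mgll (-0.74, limma adjusted P = 0.149) and Plin4 (-0.73, limma adjusted P = 0.116) passed the unadjusted threshold, 2 of 10 where 28.3% of all genes did. With a B cell score term, by contrast, 9 members were above 0 and the median was 0.36. With quantile normalization 7 were above 0 and the median was 0.24, and with the adipocyte score 6 were below 0 and it was -0.05. Leaving out DIO-HFD replicate 1 alone reversed the sign of Pnpla2, Lipe, Abhd5, Plin1 and Plin2 in this comparison.

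What surgery added to the same diet was read from DIO-VSG against DIO-LFD. All 10 members were below 0, against 52.7% of all genes, with a median of -0.47 where that of all genes was -0.02. Abhd5 and Plin1 separated the groups, 2 of 10, against 5.83% of all genes that were lower without overlap, and 0 were higher, against 12.9%. Without both outlying libraries 9 members were below 0 and the median was -0.3. Of the 14 adipocyte markers, 14 were also below 0, with a median of -0.34. The B cell score was 1.87 to 2.07 in DIO-VSG and -0.1 to 1.11 in DIO-LFD, so it separated the groups as well. With the adipocyte score as a covariate the members' median was -0.07, and with the B cell score it was -0.28, with 9 of 10 below 0 in both.

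The remaining pairs set the weight-loss groups against lean controls. DIO-LFD relative to CON-LFD had 6 members above 0 and 4 below (53.1% and 46.9% of all genes), a median of 0.06, and changes from -0.17 (Cidec) to 0.62 (G0s2), with no member that separated the groups (1.73% of all genes were higher and 1.81% lower without overlap). Without both outlying libraries 2 members were above 0 and 8 below, with a median of -0.12, while with a B cell score term 10 were above 0 and the median was 0.47, and with the adipocyte score 8 were above 0 and it was 0.16. DIO-VSG relative to CON-LFD had 10 members below 0, against 52.2% of all genes, with a median of -0.43 and a range from -0.63 (Pnpla2) to -0.07 (Plin2). Pnpla2, Abhd5 and Cidec separated the groups, 3 of 10, against 4.43% of all genes that were lower without overlap, and 0 were higher, against 2.59%. This median was -0.43 also without both outlying libraries, which belong to neither group, and 4 members, Pnpla2, Lipe, Plin1 and Cidec, then passed the unadjusted threshold in limma with adjusted P values of 0.17 to 0.209, where 22.9% of all genes passed. With a B cell score term in the fit, the median was 0.03, and with the adipocyte score it was -0.02. The 14 adipocyte markers were all below 0 here too, with a median of -0.46. The 6 comparisons share groups and are not independent of each other.

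**Figure D4:**
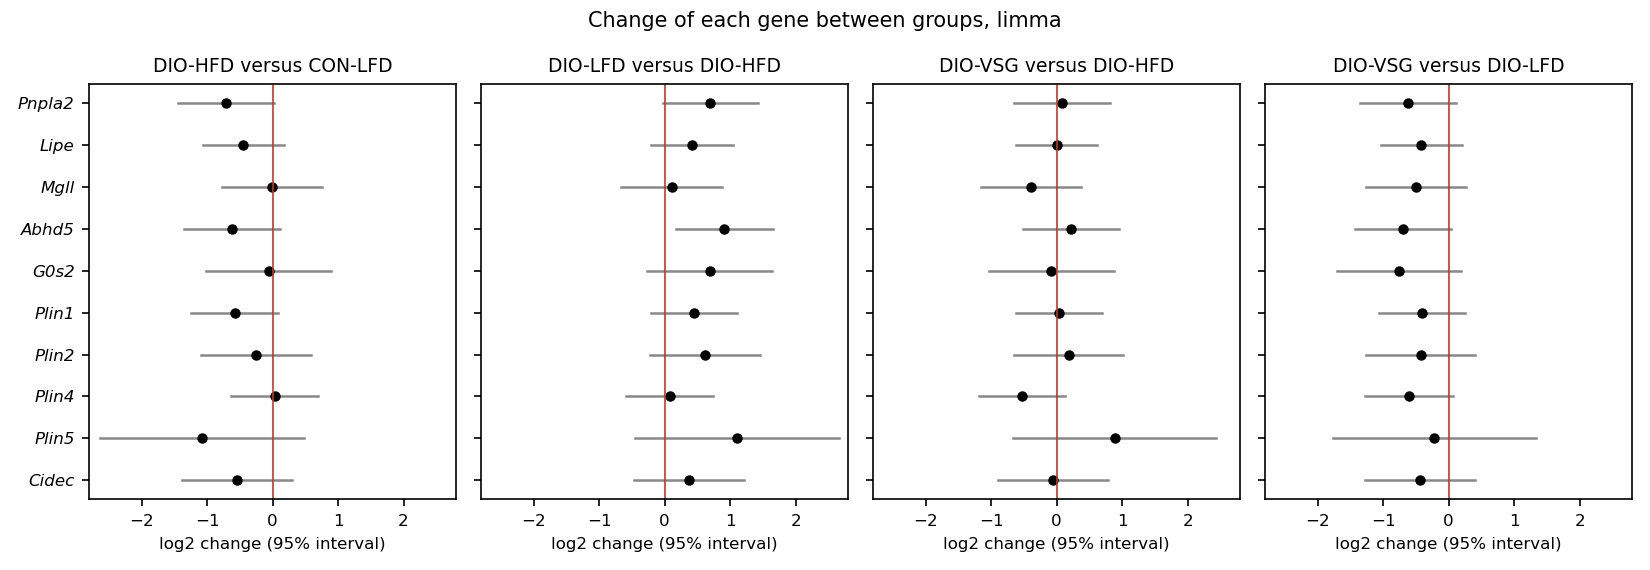
Log2 change of each gene (points) with its 95% interval (lines) from limma in 4 comparisons; the vertical line marks 0. The intervals all include 0 except that of Abhd5 in DIO-LFD versus DIO-HFD (0.18 to 1.65).

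Other genes that control lipolysis, a list of 27, gave 0 calls at an adjusted P value of 0.05 in limma in each of the 6 comparisons. In DIO-HFD relative to CON-LFD, 12 passed the unadjusted threshold, all lower, where 7.66% of all genes were, and the list's median was -0.49 beside -0.45 for the adipocyte markers. Without DIO-HFD replicate 1, the library of lowest adipocyte score, 3 were lower (5.66% of all genes), and with the adipocyte score as a covariate 3 were lower and 3 higher (9.42% and 10.4%). Aqp7 and Fabp4 belong both to this list and to the adipocyte markers, so the score was built in part from the list itself. Pde3b, the phosphodiesterase by which insulin restrains lipolysis, averaged 10940 ± 2785 normalized counts against 21789 ± 5780 (SD, n = 4) without overlap, and its log2 change was -1.0 (SE 0.24, limma adjusted P = 0.176). The catecholamine receptor gene Adrb1 averaged 313 against 561 (log2 change -0.87, SE 0.25, limma adjusted P = 0.22). Hcar1, the lactate receptor that inhibits lipolysis, averaged 1672 against 3547 (log2 change -1.13, SE 0.38, limma adjusted P = 0.254). The list thus held lower values of both a stimulating receptor and 2 inhibitory genes.

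In DIO-LFD relative to DIO-HFD, 6 of the 27 passed the unadjusted threshold, all higher, against 5.37% of all genes, and 4 of the 14 adipocyte markers were higher too. When both outlying libraries were left out, 6 of the 27 were higher again (4.59% of all genes), while the list's median went from 0.26 to -0.02. With the adipocyte score as a covariate 6 were higher and 2 lower (11.4% and 8.09%). Hcar1 averaged 4371 against 1672 (log2 change 1.49, SE 0.38, limma adjusted P = 0.329), Adrb1 528 against 313 (0.82, SE 0.25, limma adjusted P = 0.45) and Abhd15, which takes part in insulin's restraint of lipolysis, 2053 against 1220 (0.74, SE 0.17, limma adjusted P = 0.305). All 3 separated the groups, DIO-LFD replicate 1 included. In DIO-VSG relative to DIO-HFD, 5 were higher and 2 lower at the unadjusted threshold, against 5.05% and 8.12% of all genes. When both outlying libraries were left out, 2 were higher and 6 lower (14% and 14.3%). With the adipocyte score as a covariate, Gnas, Npr1 and Adrb1 passed the adjusted threshold in limma, as did Aup1, Rab8a and Plin3 of the droplet genes below and 2112 of all genes. Adrb1 averaged 537 against 313 (log2 change 0.82, SE 0.25, limma adjusted P = 0.271). The lower 2 were Npr1, the natriuretic peptide receptor that stimulates lipolysis through cyclic GMP, with 3149 against 4706 (-0.56, SE 0.18, limma adjusted P = 0.275), and Prkg1, the kinase downstream of it, with 185 against 288 (-0.62, SE 0.22, limma adjusted P = 0.305).

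Npr1 and Prkg1 were also the lowest in P of the 4 list genes that were lower at the unadjusted threshold in DIO-VSG than in DIO-LFD (5.41% of all genes, and 1 list gene was higher, against 4.3%), with log2 changes of -0.64 and -0.75 and no overlap (both limma adjusted P = 0.509). Adcy5, an adenylyl cyclase gene, averaged 6340 against 14220 there (-1.15, SE 0.37, limma adjusted P = 0.509). Relative to CON-LFD, 2 of the 27 were lower at the unadjusted threshold, against 7.55% of all genes. Prkg1 was lower without overlap there as well (-0.68, SE 0.22, limma adjusted P = 0.268), where Gnas had -0.33 (SE 0.14) and Ces1d, a carboxylesterase with lipase activity, -0.58 (SE 0.3). In DIO-LFD relative to CON-LFD, 0 of the 27 passed the unadjusted threshold, against 6.26% of all genes. The smallest P values there were those of Adcy5 (0.79, SE 0.37), Hilpda, a hypoxia-induced inhibitor of adipose triglyceride lipase (0.98, SE 0.48), and Ces1f (-0.64, SE 0.34), with limma adjusted P values of 0.791, 0.812 and 0.842.

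Of 20 other lipid droplet genes, 19 were measured, and 0 passed an adjusted P value of 0.05 in any comparison in limma. At the unadjusted threshold 5 were lower in DIO-HFD relative to CON-LFD, against 7.66% of all genes. In DIO-LFD relative to DIO-HFD 2 were higher (5.37% of all genes), in DIO-VSG 1 was higher relative to DIO-HFD (5.05%) and 1 relative to DIO-LFD (4.3%), and 0 passed in DIO-LFD (6.26%) and DIO-VSG (17.8%) relative to CON-LFD. When both outlying libraries were left out, 2 were lower in DIO-HFD relative to CON-LFD (5.79%). Cidea, the relative of Cidec in brown and beige adipocytes, had 43.5 to 242 normalized counts in DIO-HFD and 558 to 14873 in CON-LFD, without overlap (log2 change -4.15, SE 1.1, limma adjusted P = 0.213). It was also higher without overlap than in DIO-HFD in DIO-LFD (620 to 3432, log2 change 3.35, limma adjusted P = 0.463) and in DIO-VSG (286 to 7266, 3.37, limma adjusted P = 0.275). Cidea is a thermogenic marker, and the thermogenic score was -3.0 to -1.08 in DIO-HFD. Cideb was near the limit of detection (1.11 to 41.3 counts), and Acsl3, an acyl-CoA synthetase of nascent droplets, averaged 1147 against 1823 in DIO-HFD (-0.67, SE 0.23, limma adjusted P = 0.265). Bscl2, which encodes seipin, the protein that shapes droplet growth at the endoplasmic reticulum, averaged 8426 in DIO-LFD against 4756 in DIO-HFD (0.88, SE 0.25, limma adjusted P = 0.424). Fitm2 had a log2 change of 0.58 (SE 0.29) in that comparison, and Rab8a one of 0.34 (SE 0.16) in DIO-VSG relative to DIO-LFD. Hsd17b13, at 4.96 to 22.1 counts in DIO-LFD and CON-LFD, had -0.7 (SE 0.5) between them. Aup1 had 0.19 (SE 0.09) in DIO-VSG against DIO-HFD, and Rab18 and Lpcat1 had -0.23 (SE 0.11) and 0.39 (SE 0.2) in DIO-VSG relative to CON-LFD, with limma adjusted P values of 0.291 to 0.873 over these 4 genes.

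The genes whose log2 profile over the 16 libraries was most like each member were found among 13185 well-expressed genes by the root mean square difference after centring. These genes share the libraries, so the values are a description. Pnpla2 was closest to Lrrc58 (0.15), Fitm2 (0.16) and Aldh6a1 (0.17), against its own spread of 0.55. Abhd5 was closest to Pnpla2 (0.19), and Cidec had Pnpla2 second (0.24) after Bnip3 (0.23). No other member had a member among its 3 closest genes. Lipe was closest to Adhfe1 (0.14), Mgst1 and Eif4ebp1 (both 0.15), and Mgll to Map1lc3a (0.14), Rps4l and Hacd1 (both 0.16). Plin1 was closest to Sox6 (0.13), Zfp641 and the adipocyte transcription factor gene Cebpa (both 0.14). G0s2 was closest to Acvr1c (0.26), Dram1 (0.27) and Gnai1 (0.28), Plin2 to Cables1 and Cisd1 (both 0.25) and Cox19 (0.26), and Plin4 to Pdzd2 and Amotl2 (both 0.16) and Kctd12b (0.18). The closest genes to Plin5, Chchd10 (0.44), Ehhadh (0.45) and Adtrp (0.48), were less close, against its own spread of 1.06.

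Promoter windows, the 250 bases before the RefSeq start on GRCm38.p6, were found for all 10 members (14 windows) and searched on both strands for letters bound by regulators of adipocytes. The nuclear receptor motif AGGTCA was in 1 window each of Abhd5, Plin2 and Plin5, and in 14% of the 32851 windows of all genes. These 3 are shown because this motif is the unit from which the element of PPAR-gamma, the main adipocyte regulator, is built. Capitals mark the motif, or TGACCT where it lies on the other strand. It starts 69 bases before the start of Abhd5, 218 before that of Plin2 and 170 before that of Plin5. Each is given from 5′ to 3′ along the gene's own strand, and RefSeq starts can differ by some bases from the gene ends given above.

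Abhd5 (chr9:122351366-122351615, plus strand): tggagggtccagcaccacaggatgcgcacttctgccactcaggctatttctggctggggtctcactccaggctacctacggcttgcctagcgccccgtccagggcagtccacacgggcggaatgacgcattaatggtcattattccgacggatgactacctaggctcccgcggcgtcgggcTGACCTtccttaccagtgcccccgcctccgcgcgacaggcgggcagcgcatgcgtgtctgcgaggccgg

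Plin2 (chr4:86670060-86670309, minus strand): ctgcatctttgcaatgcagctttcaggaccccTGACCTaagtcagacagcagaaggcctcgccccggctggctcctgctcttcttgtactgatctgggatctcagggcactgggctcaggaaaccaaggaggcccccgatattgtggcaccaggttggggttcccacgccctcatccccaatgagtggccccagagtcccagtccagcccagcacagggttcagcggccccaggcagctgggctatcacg

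Plin5 (chr17:56117549-56117798, minus strand): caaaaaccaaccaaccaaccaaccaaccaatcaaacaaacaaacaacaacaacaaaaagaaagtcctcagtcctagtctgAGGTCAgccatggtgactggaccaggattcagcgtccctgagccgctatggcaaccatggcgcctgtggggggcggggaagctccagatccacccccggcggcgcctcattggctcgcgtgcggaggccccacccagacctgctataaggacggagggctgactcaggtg

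The full PPAR element, that motif repeated after a gap of 1 base, was in 0 of the 14 windows and in 0.0335% of all windows. The E-box CACGTG was in windows of Lipe and Mgll (6.02% of all windows), as was GTAAACA, a FOXO site (3.17%). The GC box GGGCGG was in windows of 6 members, all but Plin1, Plin2, Plin4 and Cidec (32.7% of all windows). The cyclic AMP site TGACGTCA (1.55% of all), the C/EBP site TTGCGCAA (0.164%) and the TATA box letters TATAAA (12.4%) were in 0 windows of the members. Abhd5, Plin2 and Plin5, which share the AGGTCA motif, had log2 changes relative to DIO-HFD of 0.91, 0.61 and 1.11 in DIO-LFD and of 0.22, 0.19 and 0.89 in DIO-VSG, within intervals given by the plot of changes. Members without it had changes of 0.08 to 0.7 and of -0.53 to 0.08, so Pnpla2 (0.7) and G0s2 (0.69) lay above Plin2 in DIO-LFD. Without DIO-HFD replicate 1, the changes in DIO-VSG were -0.04 for Abhd5, -0.01 for Plin2 and -0.23 for Pnpla2, while Plin5 stayed at 0.53 or above. Without both outlying libraries, those in DIO-LFD were 0.28 for Abhd5, 0.38 for Plin5 and 0.06 for Pnpla2. A match of letters says nothing of binding in this tissue.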

How the data were processed

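Total RNA was made into stranded libraries. The authors' methods name STAR and salmon on GRCm38, while the submitters' processing notes name TopHat2 2.0.7, HTSeq 0.5.3p9 and mm10. The deposited values were log2 values from the authors' DESeq2 variance-stabilizing transformation (5.36 to 21.85), and the design had assumed normalized counts. Inverting the transformation gave normalized counts, and whole reads for 100.0% of values within 0.02 reads. Size factors were 0.9036 to 1.2204.

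The 21218 genes that reached 10 normalized counts in 4 or more libraries were tested on log2(normalized count + 1), which understates the change of low genes, with limma-trend (limma 3.58.1, R 4.3.3; tested on simulated data). All 16 libraries entered 1 fit with group as the only term, and two-sided P values were adjusted by Benjamini-Hochberg within each of 6 comparisons.

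Members, lists and tests were chosen with earlier results of these data known. Besides the members, the text names, of 2 lists, the genes past the adjusted threshold or else the 3 of smallest P per comparison, and the 3 genes most like each member. Gene positions and lengths were from GENCODE M21. Replicates of a group differed beyond sampling noise (chi-square per gene at least 64.4). Alternatives were the values as deposited, a pseudocount of 10, no filter, other scalings, voom, library weights, 8-library fits, marker scores as covariates, a replicate block and leaving out each library. The library weights gave DIO-HFD replicate 4 a weight of 10.9 and all others 0.222 to 2.35, so DIO-HFD rested mostly on that library. Leaving out both outlying libraries together was added after seeing the data.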

Additional observations from a re-analysis of the deposited data

Results flagged for a closer look

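Within the 60 groups of 4 values checked (10 genes and 5 ratios in 4 groups), 8 held a value far from the other 3, where chance gives about 1 in 20. The genes share libraries and the ratios share genes, so the checks are not independent and the count is a description only. On the log2 scale of normalized counts, Lipe was 16.48 in DIO-LFD replicate 1 with 15.99 next below, and Abhd5 was 11.54 in DIO-VSG replicate 1 with 12.15 next above. In DIO-VSG replicate 2, G0s2 was 11.3 (12.04 next) and Plin1 was 15.27 (16.01 next). Plin1 was also low in CON-LFD replicate 3, at 15.76 with 16.51 next. Of the ratios per kilobase, Plin2 over Plin1 was -1.63 in CON-LFD replicate 2 (-2.24 next) and -2.48 in DIO-VSG replicate 1 (-1.44 next), and Plin5 over Plin1 was -4.15 in CON-LFD replicate 2 (-6.48 next). CON-LFD replicate 2 was also the library of highest thermogenic score (3.55) and lowest B cell score (-5.92), and the part of either in its ratios was not tested.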

How the results depend on the processing

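Of 47 changes of single members reported, 24 kept their sign under every alternative run and 23 did not, and 3 passed the adjusted threshold under 1 alternative (Pnpla2 and Abhd5 with library weights, Mgll with the adipocyte score). The causes of the reversals were not tested. With 4 libraries per group and a within-group SD of 0.43 to 1.11, no reported change of a member passed the adjusted threshold as fitted.

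Genes that passed in DIO-HFD versus CON-LFD, 8 as reported, numbered 1 with upper-quartile scaling, 3 with quantile normalization, 0 with voom, 4196 with library weights, 0 with only 8 libraries, 17 with the B cell score, 53 with the adipocyte score and 3 without both outlying libraries. In DIO-LFD versus DIO-HFD, 0 as reported, they numbered 1811 with library weights, 63 with the adipocyte score and 1 without both. In DIO-VSG versus DIO-HFD, 0 as reported, they numbered 3739 with library weights and 2112 with the adipocyte score. In DIO-VSG versus DIO-LFD, 0 as reported, they numbered 184 with library weights and 1533 with only 8 libraries. In DIO-LFD versus CON-LFD, 1 as reported, they numbered 2 with the values as deposited, with a pseudocount of 10 and with the adipocyte score, 6 with the B cell score, 53 with library weights and 0 with voom, with only 8 libraries and without both. In DIO-VSG versus CON-LFD, 0 as reported, they numbered 4226 with library weights, 2 with only 8 libraries, 2 without both, and 1 with the B cell score and with the values as deposited.

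Members called at the adjusted threshold numbered 1 with library weights in DIO-HFD versus CON-LFD and in DIO-LFD versus DIO-HFD, and 1 with the adipocyte score in DIO-VSG versus DIO-HFD, in place of 0. Members at the unadjusted threshold in DIO-HFD versus CON-LFD, 0 as reported, numbered 1 with upper-quartile scaling (where 13.2% of all genes passed), 1 with quantile normalization (12.2%), 4 with library weights (37.5%) and 2 with the adipocyte score (19.8%). In DIO-LFD versus DIO-HFD, 1 as reported, they numbered 2 with quantile normalization (8.33%), 4 with library weights (26.4%), 7 with the B cell score (15.8%), and 0 with only 8 libraries (6.86%) and without both (10.1%). In DIO-VSG versus DIO-HFD, 0 as reported, they numbered 1 with quantile normalization (13.4%), 3 with library weights (33.9%), and 2 with the B cell score (10.1%), with the adipocyte score (29%) and without both (28.3%). In DIO-VSG versus DIO-LFD there was 1 with only 8 libraries (25.3%), in place of 0. In DIO-LFD versus CON-LFD there were 3 with the B cell score (13.2%), 1 with the adipocyte score (10%) and 1 without both (6.58%), in place of 0, and in DIO-VSG versus CON-LFD 3 with library weights (37.4%), 2 with only 8 libraries (20.7%) and 4 without both (22.9%), in place of 0. The median over the members moved to 0.01 in DIO-HFD versus CON-LFD and to 0.05 in DIO-LFD versus DIO-HFD with the adipocyte score, and to 0.02 in the latter without both, against 0.20 to 0.72 with 1 library left out.

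Reversed log2 changes in DIO-HFD versus CON-LFD were those of Mgll (0.00 with quantile normalization and with voom, 0.21 with the B cell score, 0.65 with the adipocyte score, 0.34 without both), G0s2 (0.14, 0.67 and 0.33 with the B cell score, the adipocyte score and without both), Lipe (0.06) and Plin2 (0.29), the last with the adipocyte score. In DIO-LFD versus DIO-HFD they were Plin4 (-0.23 with quantile normalization, -0.25 with the adipocyte score, -0.37 without both), Cidec (-0.02 with library weights, -0.04 with the adipocyte score, -0.32 without both), Lipe (-0.00 with the adipocyte score, -0.02 without both), Mgll (-0.44 and -0.34, likewise) and G0s2 (-0.02 without both). In DIO-VSG versus DIO-HFD they were Cidec (0.10 with quantile normalization, 0.30 with the B cell score), Lipe (-0.00 with voom, -0.07 with library weights and with the adipocyte score, -0.31 without both), G0s2 (0.20 with library weights, 0.37 with the B cell score), Plin1 (-0.05, -0.03 and -0.31 with library weights, the adipocyte score and without both), Mgll (0.09 with the B cell score), and, without both, Pnpla2 (-0.23), Abhd5 (-0.04) and Plin2 (-0.01). Plin5 in DIO-VSG versus DIO-LFD was 0.36 with library weights, 0.09 with the B cell score, 0.22 with the adipocyte score and 0.29 without both. Cidec in DIO-LFD versus CON-LFD was 0.18 with the B cell score. In DIO-VSG versus CON-LFD, Plin2 was 0.02 with quantile normalization, 0.64 with the B cell score and 0.41 with the adipocyte score, and Abhd5 and Lipe were 0.06 and 0.01 with the B cell score.

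Leaving out each library in turn gave 0 to 128 genes called in DIO-HFD versus CON-LFD, 0 to 1 in DIO-LFD versus DIO-HFD and in DIO-VSG versus DIO-HFD, 0 to 6 in DIO-LFD versus CON-LFD and 0 to 873 in DIO-VSG versus CON-LFD, the highest of the first and last without CON-LFD replicate 3. Members at the unadjusted threshold numbered 0 to 3 in DIO-HFD versus CON-LFD and in DIO-LFD versus DIO-HFD, and 0 to 2 in the 3 comparisons of DIO-VSG, where 5.11% to 30.5% of all genes passed in these 5 comparisons. Members without overlap numbered 0 to 3 in DIO-HFD versus CON-LFD (4.76% to 14.4% of all genes), 0 to 1 in DIO-LFD versus DIO-HFD (4.51% to 9.26%) and in DIO-LFD versus CON-LFD (3.53% to 15.2%), 2 to 4 in DIO-VSG versus DIO-LFD (18.8% to 24.9%) and 3 to 6 in DIO-VSG versus CON-LFD (7.02% to 35.8%). Log2 changes whose sign turned ranged, in DIO-HFD versus CON-LFD, from -0.31 to 0.34 for Mgll, -0.41 to 0.33 for G0s2 and -0.12 to 0.23 for Plin4. Lipe and G0s2 in DIO-LFD versus DIO-HFD ranged from 0.11 to 0.57 and from 0.29 to 1.04 with 1 library left out. In DIO-LFD versus DIO-HFD the others ranged from -0.24 to 0.41 for Mgll, -0.18 to 0.23 for Plin4 and -0.05 to 0.68 for Cidec. In DIO-VSG versus DIO-HFD they ranged from -0.23 to 0.27 for Pnpla2, -0.31 to 0.16 for Lipe, -0.04 to 0.38 for Abhd5, -0.47 to 0.28 for G0s2, -0.31 to 0.23 for Plin1, -0.01 to 0.41 for Plin2 and -0.33 to 0.08 for Cidec. Plin5 ranged from -0.58 to 0.29 in DIO-VSG versus DIO-LFD, Cidec from -0.60 to 0.14 in DIO-LFD versus CON-LFD and Plin2 from -0.34 to 0.17 in DIO-VSG versus CON-LFD.

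Same-numbered libraries of 2 groups did not deviate together (r of deviations from the group means -0.61 to 0.53 over 24 pairs, 9 above 0.1), so numbers were not taken as pairs. With the replicate number as a block, 1 gene passed in DIO-HFD versus CON-LFD and 0 in DIO-LFD versus CON-LFD, and 0 members passed.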

Other observations

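The leptin gene Lep, which encodes the adipocyte hormone that reports fat stores, was looked at beside the members. It had 37881, 103689, 237534 and 49364 normalized counts in DIO-HFD and 31744 to 67714 in CON-LFD. In DIO-LFD replicate 1 it had 104465, against 25136 to 46975 in the other 3 DIO-LFD libraries, and in DIO-VSG it had 9321 to 39535. The highest Lep value of the 16, in DIO-HFD replicate 3, was in the library with the highest Mgll value, 92358. DIO-LFD replicate 1 thus carried high Lep, Pdk4 and lipase transcripts with low Fasn. These genes were chosen after their values were seen.

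Markers of other cells were high in single libraries. The macrophage score, from 10 markers, ran from -0.98 in CON-LFD replicate 2 to 0.92 in CON-LFD replicate 4, where Adgre1, the gene of the F4/80 antigen, had 18530 normalized counts against 569 to 2914 in the other 15 libraries. Skeletal muscle markers were high in DIO-LFD replicate 4 (score 5.66), CON-LFD replicate 4 (3.71) and DIO-VSG replicate 2 (3.16), and keratinocyte markers in DIO-HFD replicate 4 (4.18). T cell scores ran from -3.22 to 2.09 and mammary epithelium scores from -1.18 to 0.84. The highest T cell score was that of DIO-HFD replicate 1, the library lowest for 9 of the 10 members.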
